A study of Homo sapiens with 2 samples.

Results

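The ZNF-named genes described here encode zinc finger proteins, most of them factors that bind DNA. Of the 330 described, 322 held at least 1 C2H2 finger motif in the transcript examined. They were taken from an RNA-seq comparison in NCI-H838, an established line of human lung adenocarcinoma. A culture transfected by lipid with pCDH-LINC00472, a plasmid with the full-length long noncoding RNA LINC00472, was compared with a culture given the empty pCDH plasmid. Both were harvested 48 hours after transient transfection, and each gave 1 library, so no replicate stands behind any difference, no p-values are given, and each interval covers the error of counting reads alone. The members were chosen by symbol (ZNF, digits and at most an ending letter A to D) and by a level of at least 2 FPKM in the control library (fragments per kilobase, corrected for depth, a level per length). The rule found 330 of the 511 ZNF-named genes listed, among 27685 genes in all. Because the control level chose them, that level is a description only, and ratios over the control are not independent of the choice.

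A C2H2 zinc finger is a short loop held by a zinc ion between a pair of cysteines and a pair of histidines, and fingers in tandem read a stretch of DNA. Many of these proteins also carry a KRAB box, which binds TRIM28 (also called KAP1). TRIM28 brings the histone methyltransferase SETDB1 and HP1 proteins to the bound site, and this silences retroelements and other targets. KRAB zinc finger genes arose largely by tandem duplication and lie in clusters, above all on chromosome 19.

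Translated GENCODE transcripts placed a KRAB box in 215 of the 330 members (at least 9 of 18 conserved positions of the KRAB A box matched in any transcript of the gene). The 115 that scored lower are called members without KRAB, although a divergent box would be missed by this score. Among them, ZNF394, ZNF473 and ZNF852 matched 8 positions. The members encoded a median of 10 fingers, with a range of 0 to 33. Fingers were counted in 1 transcript per gene, so the 8 members with 0, among them the KRAB members ZNF197, ZNF333 and ZNF720, may have fingers in another isoform. KRAB members had a median of 12 fingers and members without KRAB a median of 7. Chromosome 19 held 157 members, of which 137 had a KRAB box.

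The coding sequences of single fingers are shown for the first 3 raised and the first 3 lowered members, in the order of their interval bounds, that encode at least 5 fingers, because the GC content of the transcript differed between these ends of the range. ZNF428, ZNF511 and ZNF593 ranked among these lowered members but encode fewer fingers. Each is the middle finger of its array, from GENCODE on GRCh38, lies in 1 coding exon, and is 63 bases long. Capitals mark the codons of the 2 cysteines and 2 histidines that hold zinc. ZNF680 is at chr7:64521638-64521700, ZNF248 at chr10:37831897-37831959, ZNF514 at chr2:95149555-95149617, ZNF787 at chr19:56088656-56088718 and ZNF579 at chr19:55578680-55578742, all on the minus strand. ZNF358 is at chr19:7520035-7520097 on the plus strand.
ZNF680: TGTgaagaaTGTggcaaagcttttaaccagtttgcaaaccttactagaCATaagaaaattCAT
ZNF248: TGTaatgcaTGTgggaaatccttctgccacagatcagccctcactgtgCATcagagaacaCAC
ZNF514: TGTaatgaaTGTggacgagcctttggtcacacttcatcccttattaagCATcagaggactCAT
ZNF787: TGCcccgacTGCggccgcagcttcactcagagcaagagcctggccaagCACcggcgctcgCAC
ZNF358: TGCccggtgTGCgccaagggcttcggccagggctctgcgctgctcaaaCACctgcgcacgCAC
ZNF579: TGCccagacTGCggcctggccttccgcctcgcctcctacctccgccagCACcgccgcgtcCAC
The fingers of the raised members held 33.3% G and C in ZNF680, 49.2% in ZNF248 and 42.9% in ZNF514. Those of the lowered members held 69.8% in ZNF787, 69.8% in ZNF358 and 74.6% in ZNF579. Taking only the middle finger of each member with a finger counted, the median GC content was 41.3% in 212 KRAB members. It was 49.6% in 110 members without KRAB.

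The LINC00472 library held 21093055 gene counts and the control library 54823706. LINC00472 itself had 25.3 FPKM in its own library and 4.74 FPKM in the control. Of the epithelial markers, KRT18 had 23.9 FPKM in the LINC00472 library and 157 FPKM in the control, KRT8 had 26.5 and 94.2 FPKM, and KRT19 had 0 and 44 counts. EPCAM had 1.18 and 1.19 FPKM. CDH1 had 2.098 FPKM in the LINC00472 library and 1.339 FPKM in the control (239 and 368 counts), so per length it was higher with LINC00472. Of the leukocyte markers, CD3E had no count in either library and PTPRC had 0 counts with LINC00472 and 32 in the control, while CD68 had 9.98 and 14.2 FPKM. Of the endothelial markers, PECAM1 had 0 and 6 counts, CDH5 had 0 and 9 counts, and VWF had 0.165 and 0.0938 FPKM (35 and 48 counts). Of the fibroblast markers, COL1A1 had 1.70 and 1.36 FPKM, LUM 0.804 and 1.40 FPKM and COL1A2 0.114 and 0.218 FPKM, and DCN had 0 and 28 counts. Whether these differences have a part in the values below was not tested.

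As a family, the ZNF-named genes held a larger share of the reads in the LINC00472 library. They took 1.79% of its counts (exact Clopper-Pearson 95% interval 1.783 to 1.794) and 1.16% of those in the control (1.160 to 1.165). Per length, the summed level of the members was 3889 FPKM in the LINC00472 library and 2881 FPKM in the control. The median member had 7.88 FPKM in the LINC00472 library and 5.84 FPKM in the control. Levels spanned 0.620 to 109 FPKM with LINC00472 and 2.01 to 86.9 FPKM in the control, and 317 of the 330 members stood at 2 FPKM or more in the LINC00472 library. In bulk RNA, fewer cells that express a gene and less RNA per cell cannot be told apart.

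**Figure D1:**
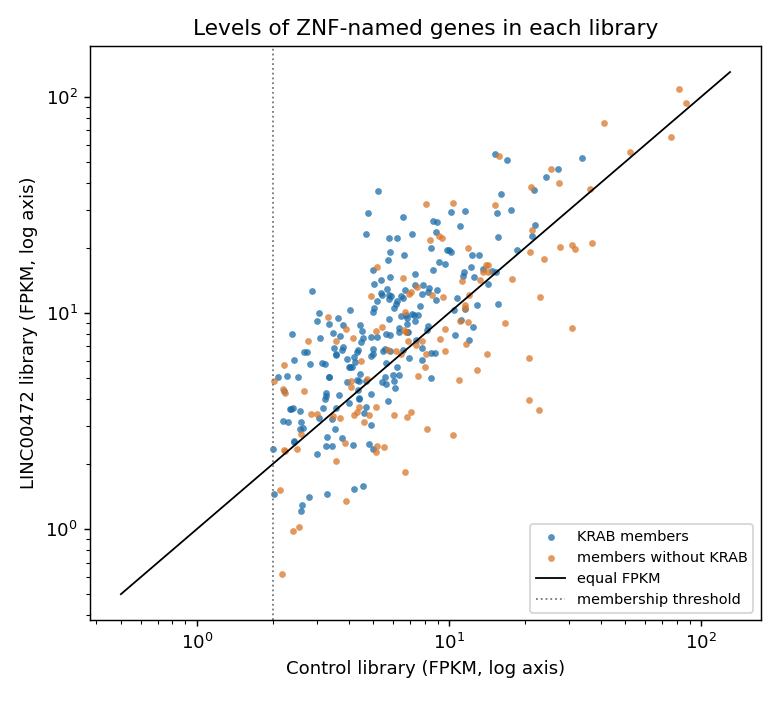
FPKM of each of the 330 members, LINC00472 on the vertical and control on the horizontal axis, both log axes, with 1 point per gene, KRAB members in blue and members without KRAB in orange. Of the points, 227 lie above the line of equal FPKM and 103 do not, and ZNF428, ZNF511 and ZNF787 are the orange points far under it at 20.7 to 22.7 FPKM in the control. FPKM does not carry the scaling used for the ratios below. With that scaling, 194 of the 330 members had a log2 ratio above 0, beside 3145 of 10078 other protein-coding genes past the same threshold.

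A gene is called higher or lower below where its mean level was at least 1 CPM (counts scaled to library size), its ratio of TMM-scaled counts was at least 2-fold and the 95% counting interval of the ratio excluded equality. Of the 330 members, 47 were called higher and 28 lower in the LINC00472 library. Among all 14012 genes at the minimum, 16.3% were called higher and 23.8% lower, and among those with at least 2 FPKM in the control 8.84% were higher and 28.2% lower. Of the members, 14.2% were higher and 8.48% lower, against 5.95% and 30.4% of the other protein-coding genes past the same threshold. The median log2 ratio of LINC00472 over control was 0.14 for the members, with quartiles of -0.39 and 0.71, against -0.48 for those other protein-coding genes and -0.19 for all genes at the minimum. These groups were not matched by level. The median control level was 5.84 FPKM in the members and 13.8 FPKM in the other protein-coding genes. Spearman's correlation of the ratio with the control level was -0.43 across those other genes and -0.13 across the members. Whether level has a part in the difference was not tested.

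The balance of calls moved with the scaling, which shifts all genes alike. With total counts the median log2 ratio was 0.43 for the members and -0.19 for the other protein-coding genes. With upper quartile factors these values were 0.53 and -0.09. The median of all genes at the minimum was 0.10 with total counts and 0.20 by upper quartiles, so both raise all ratios. Members were 82 higher and 19 lower with total counts, where 10.6% of the other protein-coding genes were higher and 21% lower. By upper quartiles members were 102 higher and 15 lower, beside 12.7% and 18.2% of the other protein-coding genes. With ratios adjusted by a spline model of intron length, GC content and transcript length, the medians were 0.07 for the members and -0.54 for the other protein-coding genes, and 36 members were higher and 23 lower, beside 4.37% and 29.5% of those genes.

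The KRAB members lay mainly on the higher side. Of 215, 36 were called higher and 7 lower, and their median log2 ratio was 0.30 (adjusted 0.19). They took 1.02% of counts in the LINC00472 library (interval 1.019 to 1.027) and 0.588% in the control (0.586 to 0.590). Of the 115 members without KRAB, 11 were called higher and 21 lower, with a median of -0.16 (adjusted -0.28). Their share of counts was also larger in the LINC00472 library, at 0.766% (interval 0.762 to 0.769). In the control it was 0.575% (0.573 to 0.577). The balance in the members without KRAB turned with the scaling, to 18 higher and 16 lower on total counts, and 24 higher and 13 lower by upper quartiles. For the KRAB members the counts were 64 higher and 3 lower on total counts and 78 higher and 2 lower by upper quartiles. Both scalings move all genes upward, so these counts are no sign of stability.

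**Figure D2:**
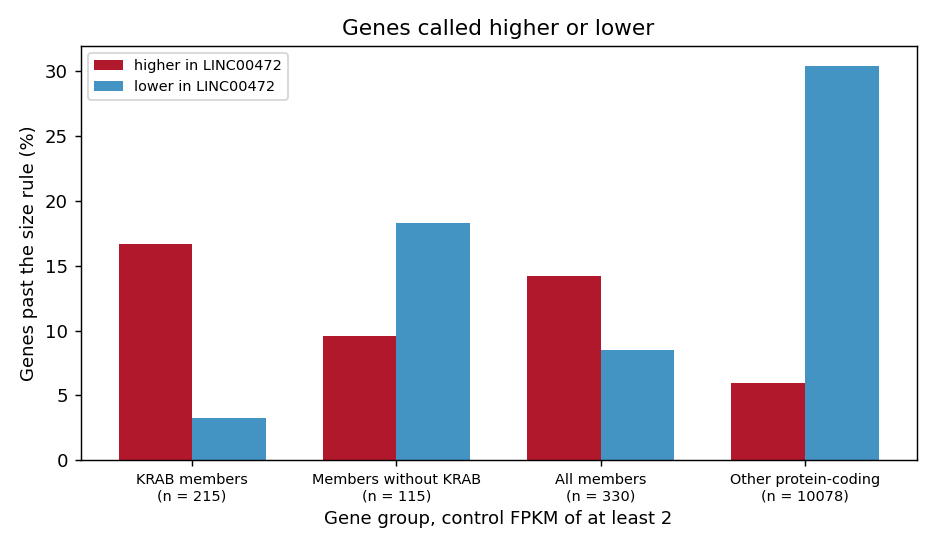
Share of genes called higher (red) and lower (blue) in the LINC00472 library, in percent, for KRAB members, members without KRAB, all members and the other protein-coding genes with a control level of at least 2 FPKM. The blue bar is the taller in the other protein-coding genes (5.94% higher, 30.4% lower, of all 10078) and in members without KRAB, and the red bar is the taller in KRAB members and in all members with TMM scaling. For members without KRAB this order turned under scaling by total counts or upper quartiles.

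The exceptions in each class were chosen for naming after their values were seen. The 11 members without KRAB called higher were ZNF292, ZNF706, ZNF800, ZNF572, ZNF326, ZNF652, ZNF438, ZNF280D, ZNF518A, ZNF512 and ZNF502. They ran from 3.44-fold higher in ZNF292 to 2.06-fold higher in ZNF502, and 49.1% of the ZNF280D transcript and 35.7% of that of ZNF512 is shared with another gene. With adjusted log2 ratios of 0.57 for ZNF280D, 0.58 for ZNF518A, 0.79 for ZNF438, 0.85 for ZNF512 and 0.86 for ZNF652, these 5 fell short of 2-fold. The KRAB members called lower were ZNF689, ZNF74, ZNF777, ZNF746, ZNF71, ZNF764 and ZNF205. Their ratios ran from 3.21-fold lower in ZNF689 to 2.16-fold lower in ZNF205, and their transcripts held 54.0% (ZNF71) to 66.0% (ZNF205) G and C. With adjusted log2 ratios of -0.65 for ZNF205 and -0.84 for ZNF764, these also fell short of 2-fold.

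The classes were also split by chromosome. On chromosome 19, the 137 KRAB members included 18 called higher (13.1%) and 1 lower (0.73%), which was ZNF71 (median log2 ratio 0.28). The 20 members without KRAB on this chromosome included 0 called higher and 10 lower (50%, median -1.11, adjusted -0.73). The median GC content of the transcripts was 42.6% in the KRAB group of chromosome 19 and 61.8% in the group without KRAB. On the other chromosomes, 18 of 78 KRAB members were higher (23.1%) and 6 lower (7.69%, median 0.42). There 11 of 95 members without KRAB were higher and 11 lower (11.6% each, median -0.07). Over all members 14.2% were higher and 8.48% lower, beside 5.95% and 30.4% of the other protein-coding genes. The 13.1% higher among KRAB members of chromosome 19 is near the share over all members.

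The highest bounds belonged mostly to KRAB zinc finger genes, whose own targets are in many cases little known. ZNF680 had 36.6 FPKM in the LINC00472 library and 5.22 FPKM in the control (2468 and 867 counts), a ratio of 6.05-fold (log2 2.60, interval 2.49 to 2.71). ZNF248 had 28.9 and 4.75 FPKM (5.99-fold). ZNF514 had 23.3 and 4.69 FPKM (4.32-fold), but 17% of its transcript consists of stretches of 50 bases that also occur in transcripts of another gene. ZNF717 had 27.6 FPKM in the LINC00472 library and 6.58 FPKM in the control (4.12-fold), and ZNF891 12.7 and 2.87 FPKM (3.87-fold).

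These 5 members all carry a KRAB box, and they lie on different chromosomes (7, 10, 2, 3 and 12). ZNF292, a large protein without KRAB whose gene is mutated in some cancers and in a neurodevelopmental disorder, was 3.44-fold higher (31.9 FPKM in the LINC00472 library and 8.10 FPKM in the control). ZNF133, a KRAB repressor, was 3.28-fold higher and ZNF141 3.25-fold. ZNF780A (3.09-fold), ZNF337 (2.96-fold), ZNF721 (2.87-fold) and ZNF235 (2.86-fold) complete the 12. ZNF337 is overlapped by exons on the opposite strand over 78.1% of its transcript, and whether the reads were counted by strand is not given in the sources used here. With adjusted ratios all 12 stayed called higher.

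**Figure D3:**
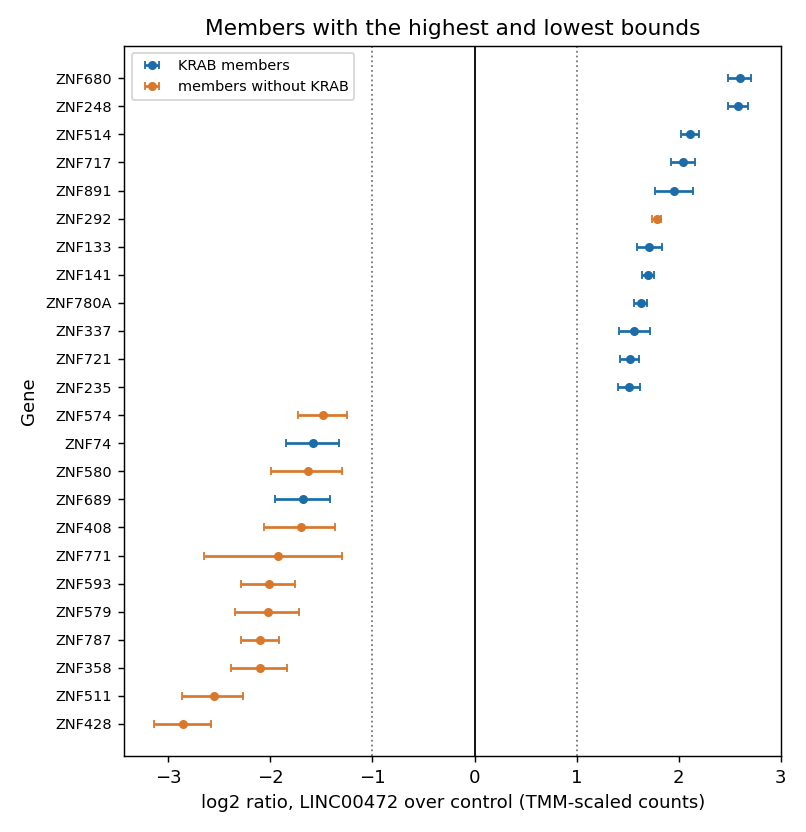
Log2 ratio of LINC00472 over control from TMM-scaled counts for the 12 members with the highest and the 12 with the lowest interval bounds, 1 gene per row, with bars for the 95% counting interval and dotted lines at a 2-fold ratio. Of the 12 highest 11 are KRAB members, and of the 12 lowest 2 are.

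The lowest bounds belonged mostly to GC-rich members without KRAB, and their transcripts held 55.7% to 70.8% G and C. ZNF428 had 3.57 FPKM in the LINC00472 library and 22.7 FPKM in the control (117 and 1803 counts), a ratio 7.22-fold lower (log2 -2.85, interval -3.14 to -2.59). ZNF511 had 3.96 and 20.7 FPKM (5.89-fold lower). ZNF787 had 6.21 and 20.7 FPKM (4.28-fold lower). ZNF358 (4.31-fold) and ZNF579 (4.07-fold) were also lower, and with ZNF428 and ZNF787 both lie on chromosome 19. For ZNF511 31.1% and for ZNF358 19.5% of the transcript was shared with another gene in stretches of 50 bases, so these counts are uncertain.

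ZNF593, whose yeast relative acts in the maturation of the large ribosomal subunit, had 8.55 FPKM in the LINC00472 library and 30.6 FPKM in the control (4.05-fold lower). Exons on the opposite strand cover all of its transcript, so its counts are uncertain as well. The others were ZNF771 (3.80-fold lower, from 22 and 180 counts), ZNF408 (3.25-fold), whose gene is linked to inherited retinal disease, ZNF580 (3.10-fold) and ZNF574 (2.80-fold). ZNF689 (3.21-fold) and ZNF74 (1.53 FPKM in the LINC00472 library and 4.19 FPKM in the control) are the 2 of the 12 that carry a KRAB box, and their transcripts held 55.7% and 57.6% G and C, above the KRAB median of 42.8%. With adjusted ratios all 12 stayed called lower.

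The 8 members with the highest control levels stayed within 2-fold. ZNF644, a partner of the histone methyltransferases EHMT1 and EHMT2, had 93.7 FPKM in the LINC00472 library and 86.9 FPKM in the control (log2 ratio of scaled counts -0.16). ZNF207, also called BuGZ, which loads the checkpoint protein BUB3 onto kinetochores, had 109 and 81.5 FPKM (0.25). ZNF146, a protein made almost only of fingers, had 65.1 and 76.0 FPKM (-0.41), and ZNF121 had 55.4 and 52.3 FPKM (-0.11).

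Of these 8, none met the rule. ZNF638, a nuclear RNA-binding protein, had 75.2 FPKM in the LINC00472 library and 41.2 FPKM in the control (0.69), and the KRAB member ZNF460 52.2 and 33.7 FPKM (0.49). ZNF24, a SCAN zinc finger protein, had 37.4 and 36.2 FPKM (-0.05). ZNF622, a factor of large ribosomal subunit maturation, had 20.96 FPKM in the LINC00472 library and 36.8 FPKM in the control (log2 ratio -0.999), just short of 2-fold.

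Of 12 genes listed for work on RNA or ribosomes, 11 were members, with 2 called higher, 1 lower, 8 not called and a median log2 ratio of -0.32. The shares called, 18.2% higher and 9.09% lower, are near those over all members. ZNF326, a subunit of the DBIRD complex that links splicing to transcript elongation, had 52.9 FPKM in the LINC00472 library and 15.7 FPKM in the control (2.49-fold higher). ZNF706, a small protein, had 16.2 and 5.18 FPKM (2.76-fold higher). The lower member was ZNF593. ZNF598, the ubiquitin ligase that marks collided ribosomes, had a log2 ratio of -0.88, and ZNF346, which binds double-stranded RNA, one of 0.02.

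Of 27 genes listed for known roles in transcription and chromatin, 24 were members, with 2 higher, 2 lower and a median log2 ratio of -0.05. These shares, 8.33% each way, stand beside 14.2% higher and 8.48% lower over all members. The higher members were ZNF292 and ZNF518A (2.17-fold), and ZNF518A fell short with adjusted ratios (0.58). The lower members were ZNF746, also called PARIS, a KRAB repressor of the gene for PGC-1 alpha (2.41-fold), and ZNF219 (2.60-fold, short of 2-fold with an adjusted log2 ratio of -0.79). ZNF143, an activator bound at many promoters, had 9.17 FPKM in the LINC00472 library and 11.1 FPKM in the control (log2 ratio -0.45). ZNF217, an oncogene candidate amplified in breast cancer, had 39.8 and 27.2 FPKM (0.36).

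Of 24 genes listed as carrying a SCAN domain, a motif through which these proteins pair, 17 were members, with 1 called higher (ZNF215, 2.33-fold), 1 lower (ZNF444, 2.34-fold, short of 2-fold with an adjusted log2 ratio of -0.71) and a median log2 ratio of 0.07. These shares, 5.88% each way from 1 gene each, stand beside 14.2% higher and 8.48% lower over all members. Of 8 genes listed for roles at retroelements, imprinted loci or other well-studied KRAB targets, 6 were members, with 1 higher (16.7%), 0 lower and a median of 0.32. The higher member was ZNF10 (2.11-fold), also known as KOX1, the source of the KRAB domain used in many synthetic repressors. With an adjusted log2 ratio of 0.80 it fell short of 2-fold. ZNF445, which protects imprinted loci, had a log2 ratio of 0.51, ZNF202 0.69 and ZNF274 0.02. ZNF91 and ZNF93, which silence retroelements, were not members, with 0 and 2 counts in the LINC00472 library and 7 and 5 in the control.

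Genes of the KRAB corepressor machinery were more often lower than higher. Of 37 listed, 2 were called higher and 12 lower, with a median log2 ratio of -0.65. That share of lower calls, 32.4%, is near the 30.4% of the other protein-coding genes and is no result about the list. TRIM28, the scaffold bound by KRAB boxes, had 61.8 FPKM in the LINC00472 library and 151 FPKM in the control (2.78-fold lower). SETDB1, its methyltransferase partner, had 22.4 and 15.5 FPKM (log2 ratio 0.22), and ATF7IP, which stabilises SETDB1, had a log2 ratio of 0.88. The HP1 genes CBX1 (-0.91), CBX3 (-0.91) and CBX5 (-0.85) fell short of 2-fold.

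Other genes of that list called lower included SUMO2, which encodes a small modifier protein (54.8 FPKM in the LINC00472 library and 169.5 FPKM in the control, 3.53-fold lower). The subunits MBD3 and GATAD2A of the NuRD complex, a deacetylase complex that acts with TRIM28, were 3.66-fold and 3.21-fold lower. The higher genes were ATRX, a chromatin remodeller found at the 3' ends of zinc finger genes (35.6 FPKM in the LINC00472 library and 13.1 FPKM in the control, 2.39-fold), and the SUMO ligase PIAS1 (2.04-fold). With adjusted ratios neither of these met the rule (log2 ratio 0.28 for ATRX and 0.70 for PIAS1). With upper quartile factors 4 were higher and 7 lower.

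Neighbouring members were compared as runs in gene order, a run being ZNF-named genes with at most 2 other protein-coding genes between them in RefSeq on GRCh38. There were 15 runs with at least 5 members, which held 166 members, and 9 of these runs lay on chromosome 19. The lowest run was that from ZNF579 to ZNF580 on chromosome 19. All 5 of its members were without KRAB and called lower, with log2 ratios from -2.03 to -1.26. With adjusted log2 ratios of -0.43 for ZNF524, -0.78 for ZNF581 and -0.97 for ZNF784, 3 of the 5 fell short of 2-fold, while ZNF579 and ZNF580 did not. The median GC content of the transcripts of this run was 64.8%. Next was the run from ZNF768 to ZNF689 on chromosome 16 (3 of 6 lower, 50%, median -0.89). After it came that from ZNF786 to ZNF862 on chromosome 7 (2 of 7 lower, 28.6%, median -0.69). A KRAB box was found in 5 of the 6 and in all 7. The transcripts of these runs were GC-rich, with medians of 58.8% and 58.0%. Of all members with 55% GC or more, 39.3% were called lower, and of the other protein-coding genes 30.4%. The share of 28.6% is near the latter and is no result about that run.

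The other large runs of chromosome 19 held no member called lower. Most of their members carry a KRAB box, and of all KRAB members 16.7% were higher and only 3.26% lower. The run from ZNF264 to ZNF8 had 31 members, of which 4 were higher (12.9%, median 0.26). The run from ZNF577 to ZNF331 had 27 members, of which 4 were higher (14.8%, median 0.04). The run from ZNF283 to ZNF180 had 17, of which 4 were higher (23.5%, median 0.64). The shares of 12.9% and 14.8% are near the 14.2% over all members and are no result about those runs. The run from ZNF627 to ZNF791 had 16 members and 1 higher (0.57), and that from ZNF565 to ZNF573 had 15 and 0 higher (0.06). The run from ZNF101 to ZNF254 holds 36 ZNF-named genes, of which 7 were members. Away from chromosome 19, the run from ZNF605 to ZNF268 on chromosome 12 had 3 of 7 higher (42.9%, median 0.84). In the run from ZNF577 to ZNF331 the members' log2 ratios spread between -0.74 and 1.42.

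**Figure D4:**
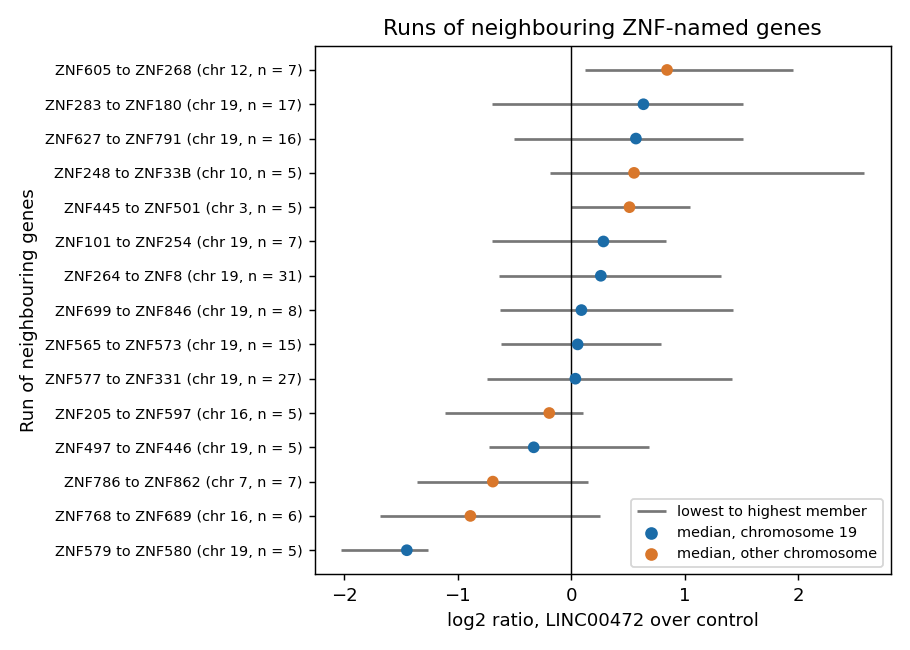
Log2 ratio of LINC00472 over control for the 15 runs of neighbouring ZNF-named genes with at least 5 members, with the median as a point and a line from the lowest to the highest member. The run from ZNF579 to ZNF580 lies wholly below 0, and the other 8 runs of chromosome 19 (blue medians) span 0.

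Among members with a finger counted, the median of the ratio was higher in each class of longer finger arrays. The median log2 ratio was -0.33 in the 42 members with 1 to 4 fingers, 0.01 in the 95 with 5 to 9, 0.30 in the 112 with 10 to 14 and 0.57 in the 73 with 15 or more. The 8 members with 0 fingers counted had a median of 0.05, with 2 higher and 1 lower. Those with 15 or more fingers included 12 called higher (16.4%) and 1 lower (1.37%). Those with 1 to 4 included 5 higher (11.9%) and 10 lower (23.8%). Over all members 14.2% were higher and 8.48% lower, so the shares called higher in both classes are near that over all members. As a description across the 330 members, many of them related by duplication, Spearman's correlation between finger number and ratio was 0.25, and it was 0.21 within KRAB members and 0.07 within members without KRAB. Finger number and GC content also went together (-0.27). With the ratio adjusted for GC content and lengths, the correlation with finger number was 0.21 across all members, 0.12 within KRAB members and 0.09 within members without KRAB.

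Among the properties examined across the members, GC content of the transcript had the strongest relation with the ratio. Spearman's correlation across the members was -0.48 with GC content, 0.32 with intron length and 0.21 with transcript length. Across the other protein-coding genes past the same threshold it was -0.25 with GC content and 0.44 with transcript length. Within the KRAB members the correlation with GC content was -0.35, and within the members without KRAB -0.60.

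Read within classes of GC content, the medians of members and of other protein-coding genes lay apart in all but the richest class. Under 40% GC, 19 of 68 members were higher (27.9%) and 0 lower, with a median log2 ratio of 0.65, against -0.05 for the other protein-coding genes. Of those other genes in this class, 10.8% were higher and 14.5% lower. Between 40% and 45% the medians were 0.34 for members and -0.31 for the others, and between 45% and 50% they were 0.16 and -0.49. Between 50% and 55% they were 0.02 and -0.62. At 55% GC or more, 0 of 61 members were higher and 24 lower. There the median was -0.70 for members and -0.74 for the others, and 39.3% of members and 40.3% of the others were called lower. In that class 6 of 20 KRAB members and 18 of 41 members without KRAB were lower.

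**Figure D5:**
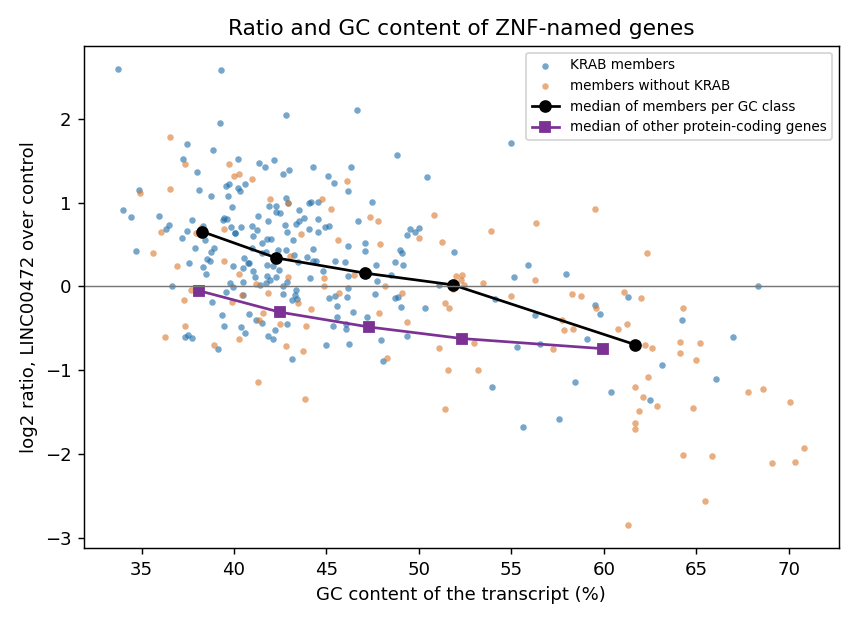
Log2 ratio of LINC00472 over control against the GC content of the transcript in percent, with 1 point per member (KRAB in blue, without KRAB in orange) and lines through the medians of 5 GC classes for members (black) and for other protein-coding genes past the same threshold (purple). The black line runs from 0.65 to -0.70 and the purple line from -0.05 to -0.74, and they come together in the richest class.

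Related families of zinc finger genes past the same threshold are set beside the members. Of 35 ZBTB-named genes, 2 were higher and 2 lower, at a median log2 ratio of -0.09. Of 11 ZFP-named genes 1 was higher and 0 lower (0.49), and of 14 ZSCAN-named genes 2 were higher and 0 lower (0.20). Of 5 ZKSCAN-named genes 1 was higher and 0 lower (-0.04), and of 9 KLF-named genes 0 were higher and 1 lower (-0.59). With 1 library per group, no difference between these families could be tested.

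At the edge of the rule, ZNF347 had 2.36 FPKM in the LINC00472 library and 2.01 FPKM in the control, ZNF502 had 4.82 and 2.03 FPKM and ZNF688 1.46 and 2.03 FPKM. Just outside it, ZNF461 had 2.85 FPKM in the LINC00472 library and 1.99 FPKM in the control, ZNF81 had 3.69 and 1.98 FPKM and ZNF467 3.60 and 1.97 FPKM. Of the 181 ZNF-named genes under the threshold, 85 reached the expression minimum, and 30 of these were called higher and 3 lower. A gene low in the control can reach that minimum through the LINC00472 library, so this count favours the higher side.

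Some members share sequence or exons with other genes. At least 10% of the transcript was shared with another gene in stretches of 50 bases for 59 members, exons of another gene overlapped on the same strand for 74 and on the opposite strand for 79. Among the 175 members with less shared sequence and no such overlap, 21 were higher and 16 lower, with a median log2 ratio of 0.11. The 59 with more shared sequence had 9 higher and 3 lower, with a median of 0.15.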

How the data were processed

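Total RNA of 1 LINC00472 and 1 control culture was sequenced. The deposited values are raw counts for each gene, which are whole numbers, and FPKM computed by the authors. Groups came from the sample titles. HISAT2 2.1.0, StringTie 1.3.4b, Trimmomatic, bcl2fastq 2.20.0 and hg19 are named, per the submitters' processing notes. Their roles, any strand setting, and whether counts were made from reads directly or estimated from coverage are not given. If they were estimated, the exact intervals below only approximate counting error. Counts were the same in both deposited copies for all 27685 genes.

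These counts were scaled by TMM (edgeR 4.0.16 in R 4.3.3), with factors of 1.11 for LINC00472 and 0.905 for control. Log2 ratios used a prior count of 0.5, and intervals are exact conditional Clopper-Pearson 95% intervals of 2 counts. They were run on simulated Poisson counts, the model they assume, which checks the computation and not variation between cultures. Reads are not independent molecules, so intervals cover counting error only. At totals of 21093055 and 54823706 counts they are narrow except for low members such as ZNF771. DESeq2 1.42.0 gave alternative size factors.

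GENCODE 29 transcripts (GRCh38), found for all 330 members, gave length, GC content, introns, fingers (C2H2 spacing) and KRAB matches. Adjusted ratios are residuals of a spline model (5 knots, degree 3; scikit-learn 1.9.0) fitted over 13621 genes, with the median added back. Members and lists were chosen with earlier results of these data known. The KRAB minimum and its search over all transcripts, the finger, GC and run classes and the shared-sequence limit were chosen after values were seen. Named members were the 12 highest and 12 lowest by the bound nearest to equality among those called, the 8 highest in the control, 3 at each side of the threshold, and list members. Alternatives covered scaling, prior count, FPKM, minimums, membership and adjustment. Some genes of the corepressor list are not reported here by name.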

Additional observations from a re-analysis of the deposited data

How the results depend on the processing

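No paired analysis was possible because each group held 1 library. Under total-count scaling 82 members were higher (median log2 ratio 0.43), with 64 KRAB members higher and 3 lower, and in the corepressor list 4 were higher (median -0.36). Under upper quartile factors 102 members were higher and 15 lower (median 0.53), with 78 KRAB members higher and 2 lower, and 24 higher and 13 lower without KRAB, and in the corepressor list 4 were higher and 7 lower (median -0.26). FPKM with 0.5 added gave 17 lower members (median 0.31). By construction of smaller or larger sets, 28 were higher and 17 lower at 5 FPKM or more in the control, 77 were higher among all 415 ZNF-named genes at the minimum (median 0.28), and 21 were higher and 16 lower among members with little shared sequence and no exon overlap, an alternative chosen after seeing the data. Membership by a level of at least 2 FPKM in the LINC00472 library took 354 genes, of which 65 were higher and 18 lower (median 0.29). That rule takes in genes because they are high in that library, so its counts favour the higher side by construction. Adjusted ratios left 0 of the corepressor list higher. Except where named, the cause was not tested. The other alternatives, which were DESeq2 size factors, a prior count of 5, the single-library tables, the other expression minimums, a control level of at least 1 FPKM, a mean level of at least 2 FPKM and a stricter KRAB match, kept these counts within 1.5 times. A KRAB search in 1 transcript per gene, added after seeing the data, gave 32 higher and 6 lower KRAB members and 15 higher and 22 lower members without KRAB. The 12 highest and 12 lowest members and ZNF502, 25 in all, kept their calls under the other scalings, the prior count of 5, FPKM, a minimum of 5 CPM and the adjustment, except that ZNF771 lost its call at that minimum. Depth limits ratios of low members most, and with 1 library per group variation between cultures is unknown.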

Other observations

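Promoters, read from RefSeq on GRCh38.p14 as 250 bases before to 50 bases after the start, were found for 292 of the 330 members. The letters CCGGAAGT, the core bound by ETS factors, occurred on either strand in 22.6% of them, in 9.88% of the promoters of other protein-coding genes past the same threshold and in 4.44% of all promoters in the table. Among members, 7 of 42 promoters of genes called higher (16.7%) and 4 of 23 of genes called lower (17.4%) held it. The core of the ZNF143 site, searched by its consensus on both strands and given here by name, occurred in 4.45% of member promoters and in 2.40% of those of the other protein-coding genes. It was found in 0 of the 42 promoters of members called higher and in 2 of the 23 of members called lower. GGGCGG, a core of SP factor sites, occurred in 64.4% of member promoters and in 72.2% of the others, and the palindromic CGCG box in 1.03% and 1.08%. The median GC content of the promoter was 60.2% in KRAB members and 66.5% in members without KRAB. A match of letters describes the window and shows no binding.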
